A study of Mus musculus with 15 samples.

Results

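Midbrain RNA was compared between transgenic mice that received carnosine through the nose and transgenic mice that received it in their drinking water. The comparison used the 6 libraries whose labels name these groups, 3 of TG intranasal and 3 of TG drinking water, out of 15 in the series, and every one of the 15818 genes that passed a filter on low counts, out of 24454 rows in the deposited count table. TG intranasal mice carried the Thy1-aSyn transgene and were given 2 mg of carnosine intranasally, while TG drinking water mice carried the same transgene and drank 10 mM carnosine. TG control mice carried the transgene, with no carnosine in their label, and are set beside both groups where it helps. All were 2 months old at the start and the treatments ran for 2 months. The other 6 libraries, WT BDF1 mice without carnosine and with 2 mg intranasally, were not compared. They entered the filter on low counts, the scaling and the fit's estimate of the spread. The labels give neither how often the nasal dose was repeated nor how much was drunk, so route, amount and handling cannot be told apart here. Nor do they say whether the libraries of a group came from separate animals, and a p-value then measures only the spread between these libraries, which may be technical.

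Carnosine is a dipeptide of beta-alanine and histidine that is abundant in muscle and olfactory bulb. It buffers acid, binds metal ions, and reacts with carbonyl compounds such as methylglyoxal. Swallowed carnosine meets peptide transporters in the gut and carnosinase, which cuts it, before it can reach the brain, whereas the nasal cavity lies next to the olfactory nerve and bulb. The Thy1 promoter is active in many kinds of projection neuron, so the transgene is not limited to the dopamine neurons of the midbrain.

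Depth was 23055862 to 34843691 counts a library in TG intranasal, against 16256593 to 23919657 counts in TG drinking water. A single row without a gene name split the series, with 0.122% to 0.320% of counts in all 6 libraries compared and in TG control 3, and 2.31% to 6.22% in the other 8, so the comparison of routes lies wholly on 1 side of that split. Levels are given as CPM, counts relative to the library size after scaling by the trimmed mean of M values, always in the order of replicates 1, 2 and 3. Thy1 itself, whose promoter drives the transgene, stood at 5032, 4576 and 3951 CPM in TG intranasal, against 4405, 3423 and 3745 CPM in TG drinking water, and its log2 fold change of 0.23 (SE 0.17) did not pass. Y-linked Ddx3y was present in every one of the 6 libraries, at 54.0, 65.6 and 56.4 CPM in TG intranasal, against 67.1, 42.9 and 65.8 CPM in TG drinking water. Markers of dopamine neurons were present but uneven, with Th, the enzyme that makes L-DOPA, at 18.5, 13.2 and 2.96 CPM in TG intranasal, against 7.88, 23.9 and 28.1 CPM in TG drinking water.

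Libraries within a group stood apart from each other. In a principal component analysis of the 6 libraries, the first component held 37.7% of the variance and set TG intranasal 3 at 79.9 from the other 5, which lay between -22.5 and -2.26. The second, with 23.8%, put TG intranasal at 7.27 to 47.1 and TG drinking water at -42.7 to -10.0. Marker genes of neighbouring brain regions also differed by library. Pmch, which encodes the hypothalamic melanin-concentrating hormone, stood at 0, 0.246 and 14.9 CPM in TG intranasal, against 20.8, 11.7 and 1.11 CPM in TG drinking water. The cerebellar granule cell receptor subunit Gabra6 stood at 0.286, 2.46 and 0 CPM in TG intranasal, against 0.201, 0.267 and 12.6 CPM in TG drinking water. Among the 6 libraries, striatal transcripts were highest by their list mean in TG intranasal 3, hypothalamic ones in TG intranasal 3 and TG drinking water 1 and 2, and cerebellar ones in TG drinking water 3. Their part in the results was not tested, and many list medians are also given without a library that moved them.

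Between the routes, 0 of 15818 genes passed an adjusted p of 0.05 (percent called 0). The test was the quasi-likelihood F-test of edgeR, adjusted by Benjamini-Hochberg, and its smallest adjusted p was 0.266. Before adjustment 1149 genes, or 7.26%, had a p under 0.05. Of these, 440 (2.78%) were higher in TG intranasal and 709 (4.48%) lower. DESeq2 called 24 genes, 9 higher and 15 lower. All 3 libraries of 1 route lay beyond all 3 of the other for 2653 genes, or 16.8%, with 1207 (7.63%) higher in TG intranasal and 1446 (9.14%) lower. The median log2 fold change of TG intranasal over TG drinking water was 0.02 over all genes, with quartiles at -0.21 and 0.21, and 812 genes (5.13%) differed by more than 1 in either direction. A count of 0 was also obtained without TG intranasal 3 and TG drinking water 1. In a fit of the 6 libraries alone a single gene passed, Adi1, which encodes an enzyme of the methionine salvage pathway. It stood at 162, 159 and 152 CPM in TG intranasal, against 77.4, 66.8 and 62.9 CPM in TG drinking water, a log2 fold change of 1.19, with an adjusted p of 0.0230 in edgeR's quasi-likelihood test of those libraries and 0.599 in that of all 15. In TG control Adi1 stood at 159, 59.1 and 61.9 CPM, so that 1 of those libraries was at the level of TG intranasal and the others at that of TG drinking water.

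**Figure D1:**
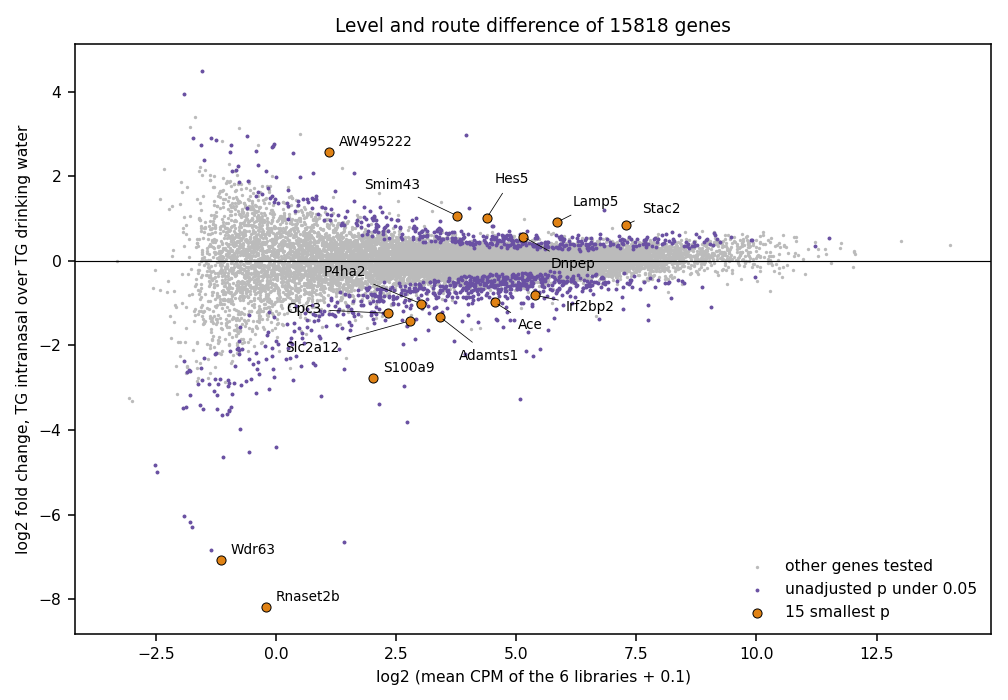
Each point is a gene, with its mean level in the 6 libraries on the x axis (log2 of CPM + 0.1) and its fitted log2 fold change of TG intranasal over TG drinking water on the y axis. Purple points have an unadjusted p under 0.05 and the orange ones are the 15 with the smallest p, from Wdr63 and Rnaset2b at the bottom, which had 0 counts in TG intranasal, to AW495222 at 2.57; none passed the adjusted threshold of edgeR, and DESeq2 called all 15.

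The 15 genes with the smallest p are named as values that did not pass the test in the fit of all 15 libraries; all of them were among the 24 that DESeq2 called. Of the 15, 6 were higher and 9 lower in TG intranasal, and in each the groups did not overlap. Hes5, a transcriptional repressor switched on by Notch, stood at 29.4, 24.5 and 29.2 CPM in TG intranasal, against 10.1, 14.1 and 17.2 CPM in TG drinking water, a log2 fold change of 1.01 (SE 0.18). Each TG intranasal library therefore lay above each TG drinking water one, and TG control, at 32.5, 27.3 and 24.6 CPM, overlapped TG intranasal. Lamp5, a neuronal relative of the lysosomal membrane proteins, stood at 66.8, 83.6 and 75.8 CPM in TG intranasal, against 43.1, 35.3 and 41.4 CPM in TG drinking water, a difference of 0.92 (SE 0.19). Stac2, an adaptor protein that binds voltage-gated calcium channels, stood at 212, 207 and 185 CPM in TG intranasal, against 118, 89.3 and 126 CPM in TG drinking water, a difference of 0.86 (SE 0.19). For both genes the lowest TG intranasal library was well above the highest TG drinking water one, while TG control spread from 51.3 to 85.3 CPM for Lamp5 and from 165 to 256 CPM for Stac2. Dnpep, an aminopeptidase that removes acidic residues from peptides, stood at 42.1, 42.8 and 41.1 CPM in TG intranasal, against 27.7, 29.0 and 28.3 CPM in TG drinking water, a difference of 0.57 (SE 0.13). Its TG control libraries, at 42.2, 37.4 and 37.998 CPM, lay above every TG drinking water library. Smim43, which encodes a small membrane protein, stood at 18.1, 21.1 and 15.7 CPM in TG intranasal, against 10.1, 7.17 and 8.92 CPM in TG drinking water, a difference of 1.06 (SE 0.23). AW495222, an expressed sequence without a named product, stood at 2.26, 2.83 and 5.36 CPM in TG intranasal, against 0.603, 0.802 and 0.332 CPM in TG drinking water, a difference of 2.57 (SE 0.55); its TG control libraries stood at 2.21, 2.03 and 2.38 CPM.

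Of the 9 lower genes, 2 had no count in any TG intranasal library. Wdr63, a component of the dynein arms that drive motile cilia, had 0 counts in TG intranasal, against 0.442, 0.936 and 0.720 CPM in TG drinking water and 0.642, 0.280 and 0.986 CPM in TG control. Against a floor of 3 counts over the group, TG intranasal was at least 20.9-fold lower than TG drinking water. Rnaset2b, a ribonuclease of lysosomes, had 0 counts in TG intranasal, against 1.57, 0.980 and 1.99 CPM in TG drinking water, or at least 45.2-fold lower by the same floor. It has a near-identical neighbouring copy in the mouse genome, between which the counting could split reads, so its value is uncertain. In all, 8 genes had 0 counts in TG intranasal and more than 3 in TG drinking water, and 0 had the reverse. TG intranasal was sequenced to 87815802 counts in all and TG drinking water to 60274569. Of all genes tested, 205, 102 and 458 were at 0 counts in TG intranasal, against 100, 32 and 37 in TG drinking water. Zeros were thus more frequent in TG intranasal over all genes too, and the cause was not tested.

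Among the other 7 lower genes were enzymes of blood vessels and of the extracellular matrix. Ace, the angiotensin-converting enzyme, stood at 18.1, 14.5 and 14.4 CPM in TG intranasal, against 25.1, 33.5 and 34.0 CPM in TG drinking water, a log2 fold change of -0.98 (SE 0.20). Gpc3, a heparan sulfate proteoglycan that binds growth factors, stood at 2.54, 3.45 and 2.76 CPM in TG intranasal, against 6.997, 6.11 and 7.54 CPM in TG drinking water, a difference of -1.24 (SE 0.26). TG control stood at 14.4, 24.8 and 21.1 CPM for Ace and 3.35, 3.85 and 3.13 CPM for Gpc3, below every TG drinking water library in both. P4ha2, a subunit of the enzyme that hydroxylates proline in collagen, stood at 5.40, 5.70 and 4.74 CPM in TG intranasal, against 10.5, 12.2 and 9.20 CPM in TG drinking water, a difference of -1.01 (SE 0.23). Adamts1, a secreted protease that cuts proteoglycans, stood at 5.66, 4.51 and 7.80 CPM in TG intranasal, against 22.1, 11.6 and 11.4 CPM in TG drinking water, a difference of -1.32 (SE 0.30). For Adamts1 the highest library by far was TG drinking water 1, and for P4ha2 the TG control libraries, at 4.63, 5.95 and 5.63 CPM, were at the level of TG intranasal. The glucose transporter gene Slc2a12 stood at 4.10, 2.38 and 4.48 CPM in TG intranasal, against 9.17, 10.9 and 9.47 CPM in TG drinking water, a difference of -1.42 (SE 0.32), with TG control between them at 6.27, 7.34 and 7.66 CPM. Irf2bp2, a transcriptional corepressor, stood at 28.1, 31.4 and 31.3 CPM in TG intranasal, against 64.3, 51.5 and 43.8 CPM in TG drinking water, a difference of -0.81 (SE 0.18). The ninth lower gene, S100a9, is given with the neutrophil genes. The mean of TG control was nearer to TG intranasal for 11 of the 15 genes, and for 12 of 15 when TG control 3 alone was used. Among the 1149 genes with an unadjusted p under 0.05, 51.5% were nearer to TG intranasal, or 63.4% by TG control 3 alone. Over all genes tested the share was 43.6%, or 52.0% by TG control 3 alone.

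**Figure D2:**
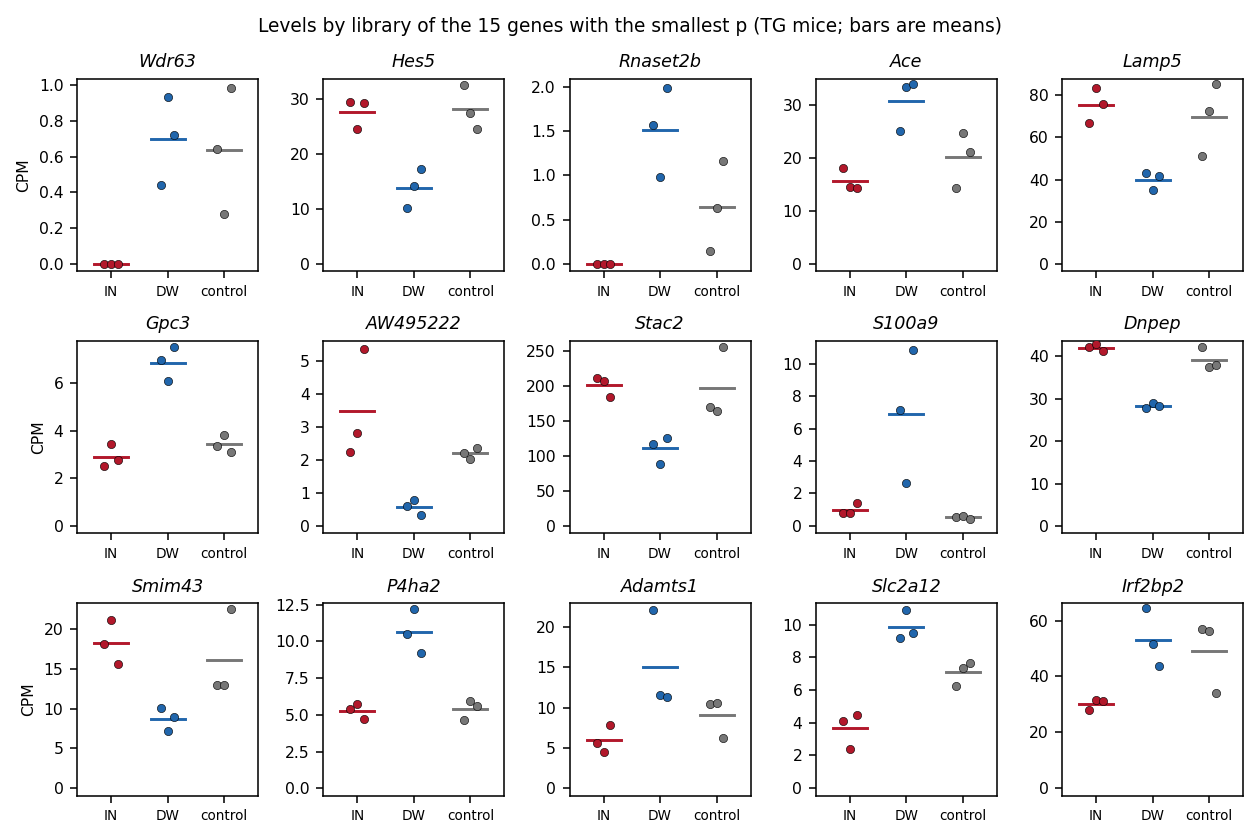
CPM of the 15 genes with the smallest p, by library, in TG intranasal (IN, red), TG drinking water (DW, blue) and TG control (grey); points are libraries in replicate order, bars are means of 3 and each panel has its own linear axis from 0. The red and blue points do not overlap in any panel. By mean log2 CPM the grey points lie nearer to the red than to the blue ones for 11 of the 15 genes, among them Dnpep, Gpc3 and P4ha2.

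Gene groups are described by how many members lay above or below 0 and by the median, since none of their members passed an adjusted p of 0.05 by edgeR in the fit of all 15 libraries; DESeq2 called S100a9, Lmx1a and Slitrk6 among them. The background for these counts is 52.1% of genes above 0 and 47.9% below, with a median of 0.02. All 6 libraries held whole midbrain RNA, in which fewer cells of a type and less RNA per cell cannot be told apart.

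**Figure D3:**
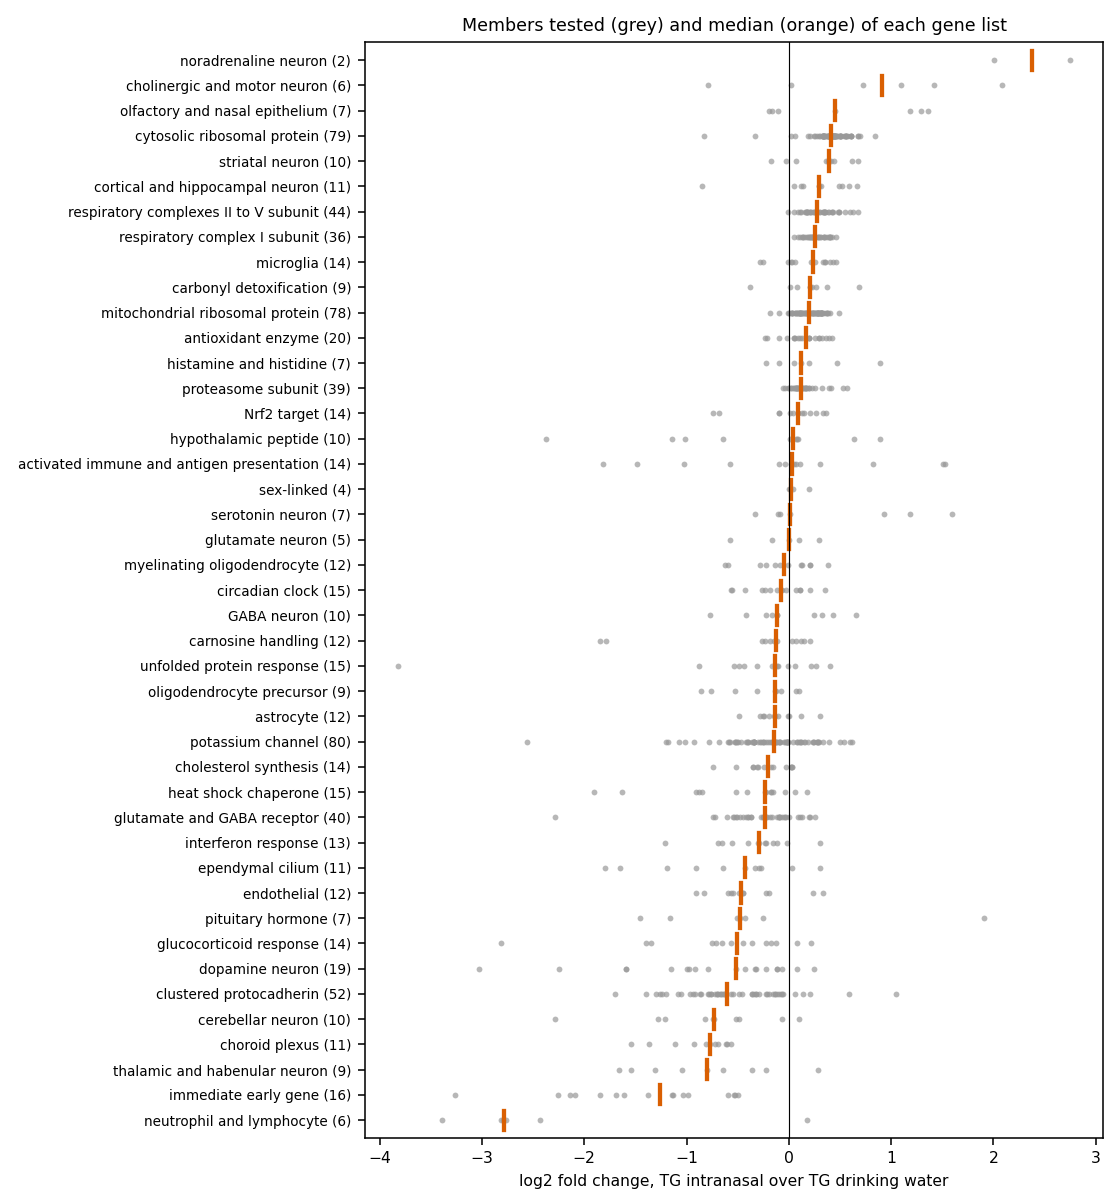
Log2 fold change of TG intranasal over TG drinking water (x axis) for the tested members of each gene list (grey points) and the list's median (orange bar), ordered by median, with the number of tested members in parentheses. The neutrophil and lymphocyte list lies lowest at -2.78, followed by the immediate early genes at -1.26, and the 2 noradrenaline genes lie highest at 2.38. Most members of the ribosomal and respiratory lists lie above 0, although the cytosolic ribosomal ones run from -0.83 to 0.84.

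Immediate early genes, which neurons transcribe within minutes of strong activity, were lower in TG intranasal for 16 of 16 members, with a median log2 fold change of -1.26. An unadjusted p under 0.05 was reached by 10 of them, all lower, where 4.48% of all genes were. Fos, a subunit of the AP-1 transcription factor, stood at 5.24, 19.3 and 17.9 CPM in TG intranasal, against 140.5, 25.5 and 36.0 CPM in TG drinking water, a difference of -2.25 (SE 0.80). Fosb, a member of the same family, stood at 6.83, 5.46 and 6.82 CPM in TG intranasal, against 169.7, 7.49 and 6.48 CPM in TG drinking water, a difference of -3.27 (SE 1.08). Most of both differences was in 1 library, TG drinking water 1, and for Fosb the groups overlapped. Nr4a3, an orphan nuclear receptor, stood at 15.3, 21.4 and 14.6 CPM in TG intranasal, against 153, 32.5 and 31.3 CPM in TG drinking water, a difference of -2.09 (SE 0.52); here the other TG drinking water libraries were also above every TG intranasal one. Fosl2 stood at 11.9, 21.5 and 20.4 CPM in TG intranasal, against 125, 26.2 and 21.9 CPM in TG drinking water, a difference of -1.69 (SE 0.53). Egr4, a zinc finger factor, stood at 9.06, 13.7 and 17.9 CPM in TG intranasal, against 139.9, 16.9 and 22.2 CPM in TG drinking water, a difference of -2.14 (SE 0.67). The groups did not overlap for 5 of 16 members, Nr4a3, Fosl2, Egr1, Fos and Npas4, where 9.14% of all genes were lower without overlap. Without TG drinking water 1 the median of the list was -0.41, and without TG intranasal 3 and TG drinking water 1 together it was -0.60. TG control was as uneven, with Fos at 176, 18.7 and 14.6 CPM. Against the same 3 TG control libraries, which both comparisons share, the list's median was -1.43 for TG intranasal and 0.06 for TG drinking water.

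Heat shock chaperones, which refold damaged proteins in the cytosol and the secretory pathway, were lower in TG intranasal for 13 of 15 members, with a median of -0.23, and 6 reached an unadjusted p under 0.05, where 4.48% of all genes were lower at that p. The exceptions above 0 were Hspe1, a mitochondrial chaperonin, at 0.18, and the small heat shock protein Cryab at 0.06. Dnajb1, a co-chaperone of Hsp70, stood at 46.0, 65.8 and 47.1 CPM in TG intranasal, against 115, 114 and 56.8 CPM in TG drinking water, a difference of -0.85 (SE 0.23). Hspb1, a small heat shock protein, stood at 12.04, 15.6 and 10.8 CPM in TG intranasal, against 22.6, 34.0 and 15.3 CPM in TG drinking water, a difference of -0.90 (SE 0.29). The inducible Hsp70 gene Hspa1a stood at 1.87, 6.32 and 4.77 CPM in TG intranasal, against 11.0, 24.4 and 4.54 CPM in TG drinking water, a difference of -1.63 (SE 0.53). Its near-identical neighbour Hspa1b stood at 3.97, 5.09 and 7.29 CPM in TG intranasal, against 14.1, 43.6 and 3.32 CPM in TG drinking water, a difference of -1.90 (SE 0.66), with reads that the counting may have split between them. In these 4 genes TG drinking water 1 and 2 were high, TG drinking water 3 was close to TG intranasal, and the groups overlapped. The groups were apart for 2 of 15 members, Hspa5 and Bag3, near the 9.14% of all genes. Without TG drinking water 2 the median of the list was -0.12. Bag3, a co-chaperone that links Hsp70 to autophagy, stood at 17.8, 18.4 and 18.9 CPM in TG intranasal, against 31.6, 26.7 and 20.2 CPM in TG drinking water.

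**Figure D4:**
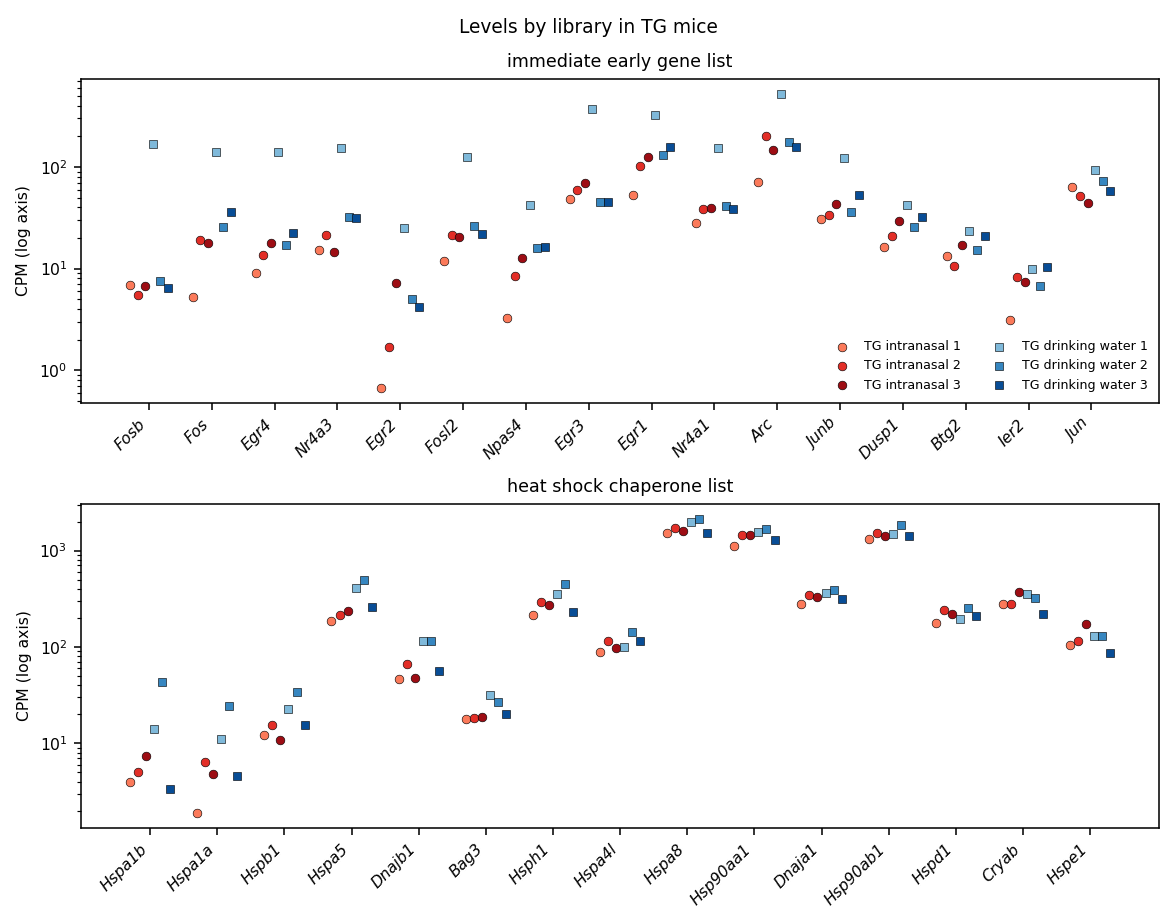
CPM on a log axis for each tested immediate early gene (upper panel) and heat shock chaperone (lower panel), ordered by log2 fold change, with circles for the 3 TG intranasal libraries and squares for the 3 TG drinking water libraries. TG drinking water 1 (palest squares) lies above all others for every early gene but Ier2, and TG drinking water 1 and 2 lie highest for Hspa1b, Hspa1a, Hspb1, Hspa5 and Dnajb1.

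The unfolded protein response list, genes induced when proteins misfold in the endoplasmic reticulum, was lower for 11 of 15 members, with a median of -0.13. Without TG intranasal 3 the median was -0.42, and without TG drinking water 2 it was 0.00. Hspa5, the main Hsp70 of the endoplasmic reticulum (also counted with the chaperones above), stood at 184, 213 and 237 CPM in TG intranasal, against 406, 499.7 and 258 CPM in TG drinking water, a difference of -0.88 (SE 0.25). Hsp90b1, its Hsp90 partner there, stood at 209.8, 221 and 242 CPM in TG intranasal, against 329, 384 and 261 CPM in TG drinking water, a difference of -0.53 (SE 0.19). In both, every TG intranasal library was below every TG drinking water one, with TG drinking water 2 highest. The stress factor Atf3 stood at 0.985, 1.27 and 0.356 CPM in TG intranasal, against 32.6, 2.45 and 1.33 CPM in TG drinking water, a difference of -3.82 (SE 1.07), with most of it in TG drinking water 1. The members without overlap were Atf3, Hspa5, Hsp90b1 and Herpud1, 4 of 15 against a background of 9.14%, and the factor Atf4 itself, at 82.0, 96.3 and 115 CPM in TG intranasal, against 122, 107 and 85.2 CPM in TG drinking water, overlapped.

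Promoter sequences are shown for Hspa5, Hsp90b1 and Hspa1a, because these chaperones were high in the same TG drinking water libraries and their promoters are textbook carriers of stress elements. The sequences are the 250 bases before the annotated start of transcription, 5′ to 3′ on the gene's strand, from RefSeq on GRCm38.p6, which is not known to be the build of the counts. Capitals mark the ER stress response element in Hspa5 and Hsp90b1 and the heat shock element in Hspa1a.
Hspa5 (chr2:34771840-34772089, plus strand): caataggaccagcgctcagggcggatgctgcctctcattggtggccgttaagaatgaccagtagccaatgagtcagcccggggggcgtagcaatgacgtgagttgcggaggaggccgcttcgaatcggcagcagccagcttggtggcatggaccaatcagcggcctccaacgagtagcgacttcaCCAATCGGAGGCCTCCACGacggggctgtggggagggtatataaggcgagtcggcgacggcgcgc
Hsp90b1 (chr10:86705445-86705694, minus strand): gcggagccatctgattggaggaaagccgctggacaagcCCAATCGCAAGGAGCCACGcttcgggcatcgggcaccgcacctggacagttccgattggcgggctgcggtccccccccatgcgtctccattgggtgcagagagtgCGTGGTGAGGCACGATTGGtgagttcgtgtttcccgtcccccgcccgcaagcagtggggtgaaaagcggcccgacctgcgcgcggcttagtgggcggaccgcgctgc
Hspa1a (chr17:34972157-34972406, minus strand): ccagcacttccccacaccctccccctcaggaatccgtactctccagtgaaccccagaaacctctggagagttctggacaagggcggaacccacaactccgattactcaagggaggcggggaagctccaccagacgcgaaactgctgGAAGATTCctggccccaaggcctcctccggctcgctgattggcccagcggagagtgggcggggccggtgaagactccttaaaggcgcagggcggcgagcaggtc
The ER stress response element was searched as CCAAT and CCACG with any 9 bases between them and the heat shock element as GAANNTTC, on both strands of windows from 250 bases before to 50 bases after the start, and none of the 3 promoters shown held both motifs. The first was found in 39 of 32851 windows (0.119%), and among the 14 unfolded protein response genes with a window in 3, Hspa5, Hsp90b1 and Creld2. Creld2, a protein of the endoplasmic reticulum, stood at 11.0, 14.9 and 16.4 CPM in TG intranasal, against 15.1, 25.2 and 12.02 CPM in TG drinking water, a difference of -0.31 (SE 0.29). The heat shock element, a short and common motif, was in 2582 windows (7.86%), and in 8 of 11 heat shock chaperones with a window. A match describes letters in a window and is neither a site of binding nor a cause.

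Genes induced by glucocorticoids, the stress steroids, were lower in TG intranasal for 12 of 14 members, with a median of -0.50. Sgk1, a kinase that regulates ion transport, stood at 141, 75.9 and 135 CPM in TG intranasal, against 433, 288 and 203 CPM in TG drinking water, a difference of -1.39 (SE 0.53). Errfi1, a feedback inhibitor of EGF receptor signalling, stood at 27.8, 33.1 and 31.6 CPM in TG intranasal, against 152, 43.5 and 39.3 CPM in TG drinking water, a difference of -1.35 (SE 0.38). The groups were apart in both, with TG drinking water 1 the highest library. Fkbp5, which encodes a co-chaperone of the glucocorticoid receptor, stood at 52.5, 50.9 and 34.8 CPM in TG intranasal, against 55.2, 56.8 and 44.3 CPM in TG drinking water, a difference of -0.18 (SE 0.16). Without TG intranasal 3 and TG drinking water 1 the median was -0.17. The clock gene Per1, which responds to glucocorticoids too, stood at 67.8, 56.4 and 62.8 CPM in TG intranasal, against 123.05, 79.7 and 73.0 CPM in TG drinking water, a difference of -0.56 (SE 0.20). Of the 15 circadian clock genes 10 were lower, with a median of -0.08, near that of all genes. Per2, which like Per1 represses Clock and Bmal1, stood at 29.9, 27.6 and 25.2 CPM in TG intranasal, against 42.7, 43.0 and 35.5 CPM in TG drinking water, a difference of -0.55 (SE 0.22).

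Genes of cholesterol synthesis were lower for 10 of 14 members, with a median of -0.21, and the groups did not overlap for 7 of them, where the background was 9.14%. Without TG intranasal 3 and TG drinking water 1 the median was -0.12. Msmo1, a later sterol oxidase, stood at 87.6, 86.8 and 88.4 CPM in TG intranasal, against 128, 104 and 102 CPM in TG drinking water, a difference of -0.35 (SE 0.13). Dhcr7, which makes cholesterol in the final reduction, stood at 20.3, 21.1 and 21.8 CPM in TG intranasal, against 25.1, 26.5 and 26.6 CPM in TG drinking water, a difference of -0.31 (SE 0.12). TG intranasal was tight in both genes and lay under each TG drinking water library, although by small steps for Dhcr7. Hmgcs1, an early enzyme of the pathway, did not follow, at 327, 371 and 332 CPM in TG intranasal, against 374, 302 and 372 CPM in TG drinking water, a difference of -0.03 (SE 0.17).

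Transcripts of neutrophils were the group furthest from 0, with 5 of 6 tested members of the neutrophil and lymphocyte list lower in TG intranasal and a median of -2.78. S100a8, which pairs with S100a9 in the neutrophil protein calprotectin, stood at 0, 0.861 and 1.36 CPM in TG intranasal, against 9.37, 2.54 and 11.6 CPM in TG drinking water, a difference of -3.39 (SE 0.81). S100a9 itself stood at 0.794, 0.779 and 1.42 CPM in TG intranasal, against 7.16, 2.63 and 10.9 CPM in TG drinking water, a difference of -2.77 (SE 0.61), with TG control at 0.570, 0.629 and 0.406 CPM. TG drinking water 1 and 3 were high for both, TG drinking water 2 was lower, and no TG intranasal or TG control library reached it. Ngp, a neutrophil granule protein, stood at 0, 0.615 and 0.860 CPM in TG intranasal, against 0.362, 1.29 and 6.43 CPM in TG drinking water, a difference of -2.43 (SE 1.06), and it overlapped. The same direction was seen in Lcn2, which encodes an iron-scavenging protein of neutrophils and reactive astrocytes, at 0.508, 0.0410 and 0.296 CPM in TG intranasal, against 3.50, 0.401 and 2.27 CPM in TG drinking water, a difference of -2.82 (SE 1.25). The B cell gene Cd79a, the member above 0, stood at 0.953, 1.27 and 0.534 CPM in TG intranasal, against 0.724, 0.713 and 0.997 CPM in TG drinking water. These are low levels, and without TG drinking water 3 the median of the list was -1.57.

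Other immune groups were mixed. Interferon response genes were lower for 12 of 13 members, with a median of -0.29, and -0.19 without TG intranasal 3. Oasl2, an antiviral sensor relative, stood at 4.10, 2.30 and 0.830 CPM in TG intranasal, against 5.39, 4.63 and 6.76 CPM in TG drinking water, a difference of -1.21 (SE 0.40). Ifit3 stood at 16.2, 13.7 and 14.6 CPM in TG intranasal, against 18.2, 12.3 and 14.5 CPM in TG drinking water. Antigen presentation and activation genes had a median of 0.04, which turned negative (-0.03) with a correction for transcript length. Among them Cybb, a subunit of the phagocyte oxidase, stood at 0.667, 0.492 and 1.16 CPM in TG intranasal, against 2.29, 2.23 and 3.77 CPM in TG drinking water, a difference of -1.82 (SE 0.49). H2-Eb1, a class II antigen presentation gene, stood at 3.18, 1.68 and 1.48 CPM in TG intranasal, against 7.16, 4.23 and 6.37 CPM in TG drinking water, a difference of -1.48 (SE 0.44). Both were apart between the groups. In this list 3 of 14 members were lower without overlap, where 9.14% of all genes were. The 2 genes do not stand for the list, in which 8 members were higher and 6 lower, from -1.82 to 1.53. Microglial markers were higher for 11 of 14, with a median of 0.23, and 0.04 without TG intranasal 3. Of them 0 reached an unadjusted p under 0.05, where 7.26% of all genes did. Trem2, a lipid receptor of microglia, stood at 37.0, 23.6 and 39.6 CPM in TG intranasal, against 28.4, 21.8 and 22.8 CPM in TG drinking water.

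Choroid plexus genes, made by the epithelium that secretes cerebrospinal fluid, were lower in TG intranasal for all 11 tested members, with a median of -0.77. Kl, the klotho co-receptor for FGF23, stood at 14.1, 6.69 and 19.1 CPM in TG intranasal, against 29.2, 43.3 and 30.7 CPM in TG drinking water, a difference of -1.36 (SE 0.42). Prlr, the prolactin receptor, stood at 5.91, 5.58 and 10.5 CPM in TG intranasal, against 17.3, 17.6 and 12.8 CPM in TG drinking water, a difference of -1.11 (SE 0.38). Both were apart between groups, as was Folr1, which carries folate into cerebrospinal fluid, at 3.27, 1.31 and 5.25 CPM in TG intranasal, against 10.3, 11.5 and 6.98 CPM in TG drinking water. These were the 3 of 11 members without overlap, where 9.14% of all genes were lower in that way. Ttr, the thyroid hormone carrier and the most abundant of these transcripts, stood at 834, 205 and 1783 CPM in TG intranasal, against 1977, 1527 and 1161 CPM in TG drinking water and overlapped, since TG intranasal 3 was near the top. Enpp2 and Tmem72, outside the list, were added after their values were seen, so their lack of overlap adds no support. Enpp2, the enzyme autotaxin, stood at 326, 189.6 and 499.8 CPM in TG intranasal, against 632, 853 and 671 CPM in TG drinking water. Tmem72 stood at 0.794, 0.164 and 1.24 CPM in TG intranasal, against 4.70, 3.79 and 4.71 CPM in TG drinking water. Without TG intranasal 3 the median of the list was -1.58, and without that library and TG drinking water 1 it was -1.40. The amount of choroid plexus taken with each midbrain was not measured, and its part in the result was not tested.

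Genes of the motile cilia of ependymal cells were lower for 9 of 11, with a median of -0.42, and -0.68 without TG intranasal 3. Dnah9, a dynein motor of the cilium, stood at 4.80, 3.12 and 3.14 CPM in TG intranasal, against 6.47, 8.91 and 5.43 CPM in TG drinking water, a difference of -0.91 (SE 0.29). Rsph4a, part of the radial spokes and named after its values were seen, stood at 1.59, 1.93 and 1.72 CPM in TG intranasal, against 3.98, 4.37 and 3.82 CPM in TG drinking water, a difference of -1.22 (SE 0.29). Dnah9 was among 3 of 11 list members that were lower without overlap, where 9.14% of all genes were. Rsph4a and Wdr63, outside the list, were also apart. They add no support, since Rsph4a was chosen with its values seen and Wdr63 by its small p. Foxj1, the master regulator of motile cilia, overlapped at 16.05, 5.99 and 9.31 CPM in TG intranasal, against 12.9, 16.7 and 9.92 CPM in TG drinking water. Endothelial genes were lower for 10 of 12, with a median of -0.47; the exceptions were Cldn5 and Ly6c1. Flt1, a VEGF receptor, stood at 14.5, 8.98 and 13.3 CPM in TG intranasal, against 14.4, 28.5 and 22.6 CPM in TG drinking water, a difference of -0.83 (SE 0.37). Cldn5, the tight junction protein of brain capillaries, stood at 34.8, 17.5 and 22.3 CPM in TG intranasal, against 10.8, 22.9 and 25.8 CPM in TG drinking water, a difference of 0.33 (SE 0.27).

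Markers of brain regions differed in direction from list to list. Thalamic and habenular genes were lower for 8 of 9, with a median of -0.80, and 6 did not overlap, where 9.14% of all genes were lower without overlap. Tcf7l2, a Wnt effector that marks thalamic neurons, stood at 38.6, 39.8 and 44.8 CPM in TG intranasal, against 81.1, 100.002 and 72.9 CPM in TG drinking water, a difference of -1.04 (SE 0.32). Slitrk6, a synaptic membrane protein, stood at 3.21, 2.38 and 4.30 CPM in TG intranasal, against 12.4, 10.5 and 5.98 CPM in TG drinking water, a difference of -1.55 (SE 0.37). Prkcd, a kinase abundant in thalamic relay neurons, stood at 46.2, 28.0 and 99.98 CPM in TG intranasal, against 179, 134 and 119.6 CPM in TG drinking water. TG drinking water was above TG intranasal in every library of these 3 genes, and the list's median was -0.76 without TG intranasal 3 and TG drinking water 1. Ntng1, a netrin relative of thalamic axons that was named after its values were seen, stood at 25.01, 17.4 and 36.5 CPM in TG intranasal, against 56.5, 58.4 and 45.8 CPM in TG drinking water, a difference of -1.02 (SE 0.27). Whether more thalamus was taken with the TG drinking water midbrains was not tested.

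Genes of dopamine neurons were lower for 17 of 19, with a median of -0.52. Lmx1a, a factor that specifies these neurons, stood at 0.254, 0.0410 and 0.207 CPM in TG intranasal, against 1.41, 2.18 and 0.720 CPM in TG drinking water, a difference of -3.03 (SE 0.72). Foxa1, which acts in the same program, stood at 0.254, 0.492 and 0.534 CPM in TG intranasal, against 1.05, 3.79 and 1.27 CPM in TG drinking water, a difference of -2.24 (SE 0.70). Nr4a2, which maintains dopamine neurons and also belongs to the early gene family of Nr4a3, stood at 23.2, 28.5 and 17.3 CPM in TG intranasal, against 74.0, 31.3 and 31.6 CPM in TG drinking water, a difference of -0.99 (SE 0.32). These 3 of 19 are the members without overlap, where the share over all genes was 9.14%, and the median of the list was -0.44 without TG intranasal 3 and -0.90 without TG intranasal 2. The dopamine transporter Slc6a3 stood at 21.0, 6.48 and 0.474 CPM in TG intranasal, against 6.63, 39.1 and 38.6 CPM in TG drinking water, a difference of -1.59 (SE 1.11), with a wide spread within each group and the lowest value in TG intranasal 3. Ddc, which converts L-DOPA to dopamine, stood at 40.8, 39.8 and 24.0 CPM in TG intranasal, against 31.4, 49.4 and 51.1 CPM in TG drinking water, a difference of -0.33 (SE 0.31).

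Cerebellar genes were lower for 9 of 10, with a median of -0.73 that became 0.06 without TG drinking water 3. Striatal genes were higher for 8 of 10, with a median of 0.39 that became -0.43 without TG intranasal 3. Cortical and hippocampal genes were higher for 10 of 11, with a median of 0.30, and 0.52 without TG intranasal 3 and TG drinking water 1. Nrgn, a calmodulin-binding protein of forebrain dendrites, stood at 1241, 935 and 1127 CPM in TG intranasal, against 918, 706 and 733 CPM in TG drinking water, a difference of 0.49 (SE 0.21). Its groups were apart, and the exception to the direction was Prox1, a factor of dentate granule cells, at 12.6, 15.5 and 7.85 CPM in TG intranasal, against 26.4, 19.5 and 18.4 CPM in TG drinking water, a difference of -0.84 (SE 0.36). Serotonin neuron genes varied by library, with Tph2, the enzyme that makes serotonin, at 7.44, 28.3 and 3.32 CPM in TG intranasal, against 0.724, 2.85 and 13.7 CPM in TG drinking water, and the list's median was 0.02. Pituitary hormones had a median of -0.48, which was 0.93 without TG drinking water 3, and hypothalamic peptides 0.04, which was -0.06 with a correction for transcript length and -1.81 without TG intranasal 3.

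Transmitter classes varied in size and direction. GABA neuron markers had a median of -0.12, which was -0.03 without TG drinking water 2. Gad1, which makes GABA, stood at 243, 223 and 243 CPM in TG intranasal, against 255, 279.7 and 263 CPM in TG drinking water, a difference of -0.17 (SE 0.16). Of the glutamate markers, with a median of 0.00 that was -0.04 with the correction for transcript length, Slc17a6, the vesicular transporter of subcortical neurons, stood at 69.1, 90.4 and 55.8 CPM in TG intranasal, against 97.1, 113 and 111 CPM in TG drinking water, a difference of -0.58 (SE 0.18) without overlap. Slc17a7, that of cortical neurons, stood at 1173, 831 and 625 CPM in TG intranasal, against 743, 630.4 and 765 CPM in TG drinking water, a difference of 0.30 (SE 0.23). Cholinergic and motor neuron genes were higher for 5 of 6, with a median of 0.91, which was 0.31 without TG intranasal 2. Chat, which makes acetylcholine, stood at 0.445, 3.69 and 2.85 CPM in TG intranasal, against 2.61, 0.357 and 1.22 CPM in TG drinking water, a difference of 0.72 (SE 0.80). In this list 0 members were apart, where 16.8% of all genes were. Of noradrenaline neuron genes 2 were tested, with a median of 2.38, which was 0.01 without TG intranasal 2. Dbh, which makes noradrenaline from dopamine, stood at 0.572, 2.87 and 0.593 CPM in TG intranasal, against 0.523, 0.223 and 0.222 CPM in TG drinking water, a difference of 2.01 (SE 1.29). Receptor subunits for glutamate and GABA were lower for 34 of 40, with a median of -0.23, and 14 did not overlap, where 9.14% of all genes were lower without overlap. Gria1, an AMPA receptor subunit, stood at 268, 235 and 204 CPM in TG intranasal, against 291, 359 and 362 CPM in TG drinking water, a difference of -0.52 (SE 0.19). Potassium channel subunits were lower for 56 of 80, with a median of -0.15, and -0.08 without TG intranasal 3. Kcnc2, a fast channel of rapidly firing neurons, stood at 47.9, 50.8 and 64.2 CPM in TG intranasal, against 80.6, 72.5 and 77.2 CPM in TG drinking water, a difference of -0.50 (SE 0.17). Synaptic vesicle genes were higher for 10 of 15 and lower for 5, with a median of 0.11 and a range of -0.35 to 0.44. Of these 15, only 1, Cplx1, was higher without overlap, where 7.63% of all genes were. Cplx1, a complexin that regulates synaptic vesicle release, stood at 1022, 1105 and 919.7 CPM in TG intranasal, against 844, 752 and 852 CPM in TG drinking water, a difference of 0.32 (SE 0.15).

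Clustered protocadherins, adhesion proteins that give neurons a surface identity, were lower for 47 of 52, with a median of -0.60, and 13 did not overlap, where 9.14% of all genes were lower in that way. Pcdhb9 stood at 5.62, 4.35 and 3.20 CPM in TG intranasal, against 9.73, 8.20 and 6.98 CPM in TG drinking water, a difference of -0.92 (SE 0.24). Pcdhga4 stood at 4.26, 2.67 and 1.24 CPM in TG intranasal, against 6.80, 5.79 and 6.76 CPM in TG drinking water, a difference of -1.24 (SE 0.38). Many of these genes share exons or sequence with their neighbours, so counts of single members are uncertain. Their transcripts are long, with a median length of 4528 bases, against 628 for cytosolic ribosomal proteins and 690.5 for subunits of complex I. Across 15081 genes with a length, the log2 fold change had a Spearman correlation of -0.248 with transcript length, given as a description over genes that share the same 6 libraries. With a correction for transcript length the protocadherin median was -0.44, the receptor median -0.13 and the potassium channel median -0.09.

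Short, abundant housekeeping transcripts lay above 0. Subunits of respiratory complex I, which passes electrons from NADH into the respiratory chain, were higher in TG intranasal for all 36 tested, with a median of 0.26 and a range of 0.05 to 0.46. Subunits of complexes II to V were higher for 43 of 44, with a median of 0.27. Cytosolic ribosomal proteins were higher for 77 of 79 (median 0.42), mitochondrial ribosomal proteins for 75 of 78 (median 0.20) and proteasome subunits for 36 of 39 (median 0.11). Few single members stood out by p, since an unadjusted p under 0.05 was reached by 0 complex I, 1 complex II to V (Atp5g2, a subunit of the ATP synthase), 0 cytosolic and 0 mitochondrial ribosomal and 0 proteasome genes, where 2.78% of all genes were higher at that p. Higher without overlap were 4 of 36 complex I and 7 of 44 complex II to V genes, where 7.63% of all genes were. The same held for 1 of 79 cytosolic and 11 of 78 mitochondrial ribosomal and 5 of 39 proteasome genes. Ndufv1, which binds NADH in complex I, stood at 252, 228 and 207 CPM in TG intranasal, against 206, 175 and 193 CPM in TG drinking water, a difference of 0.26 (SE 0.14). Cox6c, a subunit of cytochrome oxidase, stood at 463, 515 and 1069 CPM in TG intranasal, against 542, 404 and 333 CPM in TG drinking water, a difference of 0.68 (SE 0.36). Rpl4, of the large ribosomal subunit, stood at 754, 942 and 1377 CPM in TG intranasal, against 813, 789.9 and 729 CPM in TG drinking water, a difference of 0.40 (SE 0.21). TG intranasal 3 was the highest library for both, and for Cox6c the other TG intranasal libraries lay within the range of TG drinking water. Without TG intranasal 3 the medians were 0.10 for complex I, 0.13 for complexes II to V, 0.00 for cytosolic and 0.11 for mitochondrial ribosomal proteins and 0.09 for the proteasome. With the correction for transcript length they were 0.17, 0.21, 0.33, 0.14 and 0.07 in the same order.

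**Figure D5:**
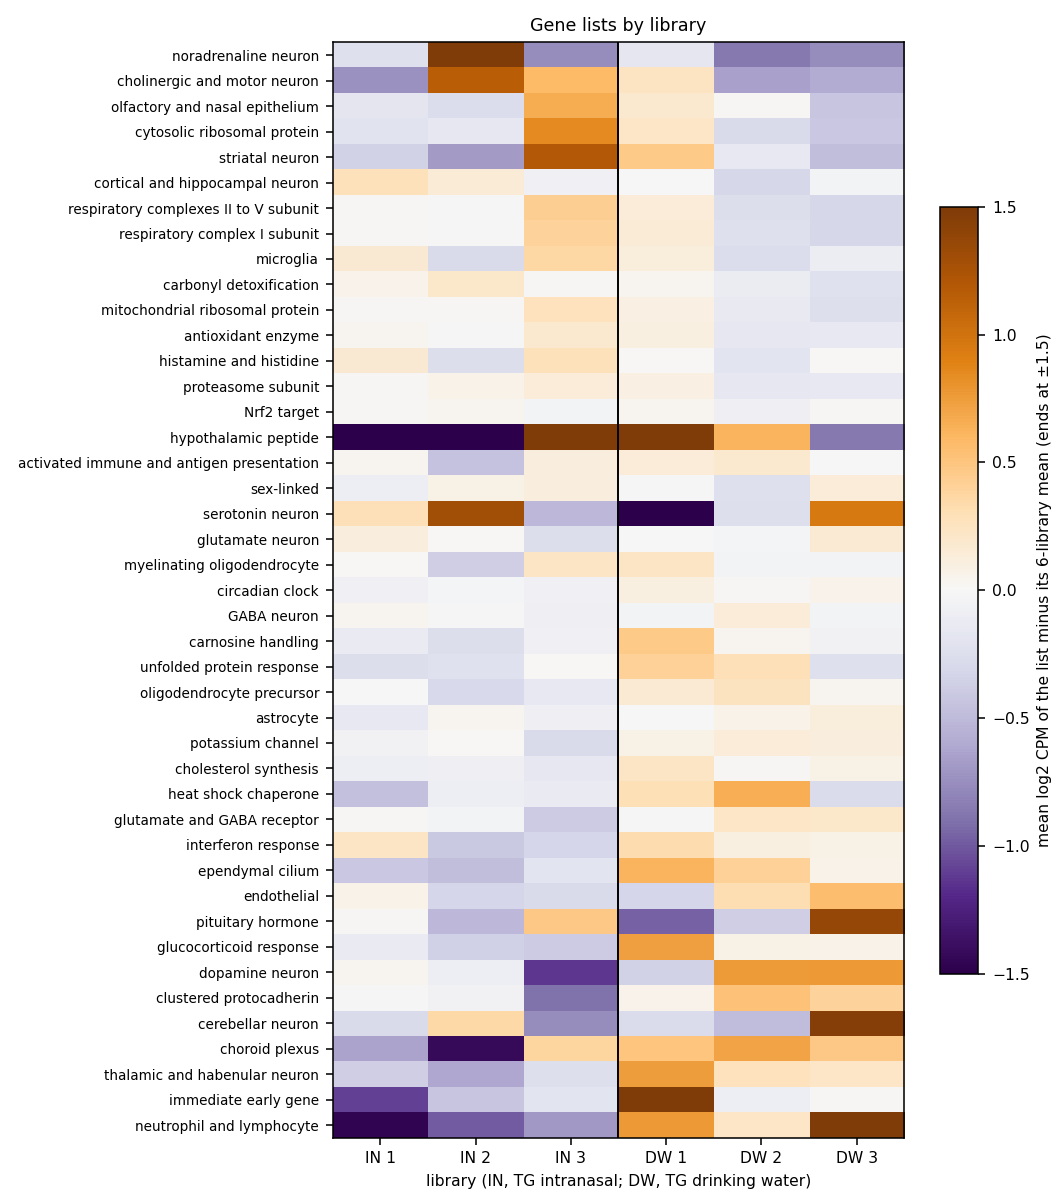
Mean log2 CPM of each gene list in each library minus the list's mean over the 6 libraries (colour), with TG intranasal (IN 1 to 3) left of the line and TG drinking water (DW 1 to 3) right of it. Ribosomal and striatal genes are highest in IN 3, immediate early genes in DW 1 and cerebellar genes in DW 3, so several list differences lie in 1 library rather than in all 3 of a group.

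For genes tied to the chemistry of carnosine, list medians lay near 0 while single members differed more. Of 12 genes for making, cutting and moving carnosine and its parts, 7 were lower, with a median of -0.13, which was 0.09 without TG drinking water 1. Members of this list ran from -1.85 to 0.21. Carns1, the carnosine synthase, stood at 14.6, 10.5 and 14.8 CPM in TG intranasal, against 13.3, 18.5 and 11.4 CPM in TG drinking water, a difference of -0.11 (SE 0.25). Cndp1, a carnosinase, stood at 0, 0.533 and 0.504 CPM in TG intranasal, against 0.442, 0.357 and 0.443 CPM in TG drinking water. Cndp2, the cytosolic dipeptidase, stood at 66.1, 57.3 and 70.3 CPM in TG intranasal, against 61.6, 54.8 and 62.5 CPM in TG drinking water, a difference of 0.12 (SE 0.14). The brain peptide transporter gene Slc15a2 stood at 36.1, 42.5 and 44.9 CPM in TG intranasal, against 43.5, 38.6 and 38.9 CPM in TG drinking water, a difference of 0.03 (SE 0.15). All of these overlapped. Gadl1, an enzyme that makes beta-alanine, stood at 0.731, 0.697 and 0.948 CPM in TG intranasal, against 7.04, 0.668 and 0.499 CPM in TG drinking water, and its difference of -1.79 (SE 0.78) lay in TG drinking water 1 alone. Histamine and histidine genes had a median of 0.12, which was -0.02 without TG intranasal 3. The histamine receptor gene Hrh2 stood at 2.89, 2.34 and 4.45 CPM in TG intranasal, against 1.69, 1.65 and 1.88 CPM in TG drinking water, a difference of 0.89 (SE 0.35) without overlap.

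Carbonyl detoxification genes were higher in TG intranasal for 8 of 9, with a median of 0.21. Of these genes 4 were higher without overlap, where 7.63% of all genes were. Glo1, the glyoxalase that clears methylglyoxal, stood at 342, 382 and 399 CPM in TG intranasal, against 279, 253 and 166 CPM in TG drinking water, a difference of 0.69 (SE 0.22), with TG control at 183, 202 and 161 CPM. Akr1a1, an aldehyde reductase, stood at 557, 439 and 481 CPM in TG intranasal, against 428, 347 and 363 CPM in TG drinking water, a difference of 0.38 (SE 0.17). Both were apart between the routes; for Glo1 the TG drinking water libraries spread from 166 to 279 CPM. Hagh, the next enzyme of the glyoxalase pathway, stood at 95.4, 79.2 and 81.1 CPM in TG intranasal, against 80.9, 71.7 and 68.6 CPM in TG drinking water, a difference of 0.21 (SE 0.17). Metallothionein Mt1, which binds zinc and copper, stood at 833, 628 and 769 CPM in TG intranasal, against 655, 549 and 541 CPM in TG drinking water, a difference of 0.35 (SE 0.23). The zinc exporter gene Slc30a1 stood at 24.3, 19.3 and 25.9 CPM in TG intranasal, against 38.2, 28.3 and 27.1 CPM in TG drinking water, a difference of -0.43 (SE 0.18). Antioxidant enzymes were higher for 16 of 20, with a median of 0.16, and 0.28 without TG drinking water 1. Prdx6, a peroxiredoxin, stood at 602, 616 and 634 CPM in TG intranasal, against 495, 469.9 and 476 CPM in TG drinking water, a difference of 0.36 (SE 0.14). Txn2, the mitochondrial thioredoxin, stood at 184, 145 and 178 CPM in TG intranasal, against 138, 113 and 126 CPM in TG drinking water, a difference of 0.43 (SE 0.18). Only these 2 of 20 had no overlap, near the 7.63% of all genes, and the same 2 had an unadjusted p under 0.05, where 2.78% of all genes were higher at that p. Targets of Nrf2, the factor that induces antioxidant defence, had a median of 0.09. Hmox1, a haem oxygenase, stood at 9.53, 9.35 and 12.4 CPM in TG intranasal, against 8.85, 9.40 and 6.04 CPM in TG drinking water, a difference of 0.36 (SE 0.22).

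Glial and nasal markers are given last. Astrocyte genes had a median of -0.14, with Aldh1l1, a folate enzyme of astrocytes, at 126, 142 and 114 CPM in TG intranasal, against 106, 114 and 132 CPM in TG drinking water. Reactive astrocyte genes were lower for 8 of 12 members, with a median of -0.23. Gfap, the intermediate filament that these cells accumulate, went the other way. It stood at 1272, 1087 and 782 CPM in TG intranasal, against 878, 653 and 808 CPM in TG drinking water, a difference of 0.42 (SE 0.30), and overlapped. Slc7a11, the cystine and glutamate exchanger of astrocytes and an Nrf2 target, stood at 27.1, 33.5 and 35.0 CPM in TG intranasal, against 47.0, 48.9 and 57.2 CPM in TG drinking water, a difference of -0.68 (SE 0.34) without overlap. Oligodendrocyte precursor genes had a median of -0.13, which was -0.32 without TG intranasal 1, and 3 of 9 were lower without overlap, where 9.14% of all genes were. Vcan, a matrix proteoglycan, stood at 10.2, 10.8 and 11.5 CPM in TG intranasal, against 19.6, 20.2 and 18.8 CPM in TG drinking water, a difference of -0.85 (SE 0.41) without overlap. Myelin genes had a median of -0.04, which lay between -0.13 and 0.10 when 1 library was left out. Mag, an adhesion protein of the inner myelin layer, stood at 229, 149 and 178 CPM in TG intranasal, against 286, 325 and 248 CPM in TG drinking water, a difference of -0.63 (SE 0.29) without overlap, against 0.38 for Mbp, a main structural protein of myelin. Olfactory and nasal epithelium markers, which nasal dosing could make of interest, were near the limit of detection, with Omp, the marker of mature olfactory neurons, at 0.477, 0.287 and 1.24 CPM in TG intranasal, against 0.523, 0.223 and 0.111 CPM in TG drinking water. The median of the 7 tested was 0.45, and -0.11 in a fit of the 6 libraries alone.

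Set against TG control, both routes gave few calls. In the same edgeR fit, 1 gene of 15818 (0.00632%) was called for TG intranasal and 1 for TG drinking water, and both calls were Lrrc17, a secreted leucine-rich repeat protein. Its log2 fold change against TG control was 4.09 (SE 0.58, adjusted p = 0.0385) for TG intranasal and 4.30 (SE 0.59, adjusted p = 0.0228) for TG drinking water. TG control stood at 5.49, 3.08 and 8.30 CPM for this gene. Between the routes Lrrc17 stood at 16.7, 127 and 147 CPM in TG intranasal, against 134, 117 and 83.7 CPM in TG drinking water, a difference of -0.21 (SE 0.50). Both comparisons share the 3 TG control libraries, of which TG control 1 and 2 lie on the other side of the split by the unnamed row.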

How the data were processed

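Total RNA of midbrain was sequenced with standard Illumina libraries, per the labels' protocols. The authors deposited 1 table of raw counts with 24454 rows of numeric gene IDs and 15 libraries. The aligner, counter, genome build and strandedness were not given in the sources used here. Symbols came from a RefSeq table (GRCm38.p6) for 24374 IDs. Another 80 IDs took 0.148% to 6.23% of the counts per library and were kept, since each carries a gene ID, and 4576 rows were 0 throughout.

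Counts were filtered with filterByExpr by group, which left 15818 genes, scaled by TMM and fitted with edgeR's quasi-likelihood method (edgeR 4.0.16, limma 3.58.1, R 4.3.3). The fit held a mean for each of 5 groups of 3 libraries, with a common biological coefficient of variation of 0.244 and 6.54 prior degrees of freedom. P-values were adjusted by Benjamini-Hochberg over all genes tested and called under 0.05. Standard errors came from the F statistic. Log2 CPM used a prior count of 2, and bounds for groups at 0 a floor of 3 counts over the group, which covers counting error only. The whole procedure was tested on simulated counts. Transcript lengths were medians over GENCODE M21 transcripts, for 15081 genes (95.3%).

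The groups and gene lists were chosen with earlier results of these data known. Named by rule were Thy1, the 15 genes with the smallest p (with fewer than 5 calls, leaving out predicted genes, RIKEN clones, pseudogenes and IDs without a symbol), and for each list described its 3 members with the smallest p and its first 2 tested members as written. Lists are described through a choice of those, and any other gene named was chosen after its values were seen. Alternatives covered scaling, filters, thresholds, libraries fitted, transcript length, a replicate block, DESeq2 1.42.0, voom and leaving out libraries.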

Additional observations from a re-analysis of the deposited data

How the results depend on the processing

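The count of genes called between the routes was 0 by edgeR's quasi-likelihood test under RLE and upper-quartile scaling, a correction for transcript length, no filter, a filter of 5 CPM in at least 3 libraries, an adjusted p of 0.1, a minimum log2 fold change of 1, the 9 TG libraries alone, and without each of the 6 libraries in turn. It was also 0 by limma's voom with quality weights. It was 24 with DESeq2, 1 in the fit of the 6 libraries and 1 in a fit of the 7 libraries with a low share of the unnamed row. That last fit, and the one without TG intranasal 3 and TG drinking water 1 together, were chosen after seeing the data. Same-numbered libraries did not deviate together (correlations of -0.0960, 0.0438 and -0.173 for replicates 1, 2 and 3), 1 of 6 libraries correlated best with its own number, and the replicate block also gave 0 calls. The cause of the differences between settings was not tested. With 3 libraries a group and 16256593 to 34843691 counts in each, genes at a few counts, such as those of neutrophils, rest on small numbers.

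Of 834 list medians under alternatives, 801 moved by less than the spread between replicates. That spread is itself wide for lists that 1 library moved, so a median within it could still change sign. The cerebellar median of -0.73 did so without TG drinking water 3, against a replicate spread of 0.848. With the correction for transcript length the GABA neuron median was -0.029 and the Nrf2 median 0.029, and with the replicate block added -0.0283 and 0.0317. The choroid plexus median was -1.68 by voom. The olfactory median was -0.101 with the stricter filter, -0.111 with the 6 libraries, -0.117 by voom and 0 without TG intranasal 3 and TG drinking water 1, a setting that gave -0.17 for glucocorticoid, -0.12 for cholesterol and 0.52 for cortical genes. The median over all genes was 0.0318 with upper-quartile scaling, -0.000121 by voom and -0.00016 with the 7 libraries. When each library was left out in turn, list medians ran from 0.0025 to 0.016 over all genes, -1.64 to -0.41 for immediate early genes, -0.42 to 0.0013 for the unfolded protein response, -0.17 to -0.063 for the clock, -3.18 to -1.57 for neutrophils and lymphocytes, -1.58 to -0.50 for choroid plexus and -0.68 to -0.34 for ependymal cilia. They ran from -0.19 to -0.026 for GABA neurons, -0.43 to 0.64 for striatum, -0.32 to -0.11 for oligodendrocyte precursors, -0.20 to 0.093 for carnosine handling, 0.0038 to 0.75 for olfactory markers, -1.81 to 0.54 for hypothalamic peptides, -0.99 to 0.93 for pituitary hormones and 0.0074 to 2.84 for noradrenaline neurons.

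Of the 130 genes named, 17 had the opposite sign of their log2 fold change under some setting, and 0 of the 15 with the smallest p. With the correction for transcript length Cryab was at -0.0020, Hmgcs1 at 0.023 and Slc15a2 at -0.032. Ddx3y was at -0.00012 without a filter, -0.0045 with the 6 libraries and -0.012 with the 7. Without TG intranasal 3 and TG drinking water 1 together, Fkbp5 was at 0.032, Gadl1 at 0.28, Hmgcs1 at 0.052 and Ifit3 at 0.16. The replicate block with the length correction put Hmgcs1 at 0.017 and Slc15a2 at -0.048. Voom put Hmgcs1 at 0.044 and Ifit3 at 0.048, and upper-quartile scaling put Ifit3 at 0.00050. Leaving out 1 library at a time gave ranges of -0.25 to 0.022 for Atf4, -0.27 to 0.11 for Carns1, -0.12 to 0.46 for Cd79a, -0.69 to 0.32 for Cndp1, -0.53 to 0.054 for Creld2, -0.14 to 0.20 for Cryab, -0.18 to 0.11 for Ddx3y, -4.89 to 1.88 for Gabra6 and -2.28 to 0.44 for Gadl1. The ranges were -0.12 to 0.027 for Hmgcs1, -0.062 to 0.32 for Hspe1, -0.14 to 0.15 for Ifit3, -0.64 to 0.29 for Lrrc17, -0.070 to 0.41 for Ly6c1, -0.040 to 0.11 for Slc15a2 and -0.081 to 2.85 for Tph2.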

Other observations

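Several genes outside the lists described above were apart between the routes and were chosen after their values were seen. None passed edgeR's test in the fit of all 15 libraries. DESeq2 called Cryzl2, Cxcl14, Wnt9b, Gprc5a and Itgae among them. Erdr1, which encodes a secreted factor of leukocytes, stood at 29.2, 24.98 and 27.3 CPM in TG intranasal, against 6.72, 0.401 and 3.05 CPM in TG drinking water, a log2 fold change of 2.98 (SE 0.75), with TG control at 29.4, 17.5 and 31.7 CPM, so TG drinking water was the low group. Cryzl2, a gene for a relative of quinone oxidoreductases, stood at 17.1, 22.03 and 28.3 CPM in TG intranasal, against 10.1, 9.76 and 8.75 CPM in TG drinking water, a difference of 1.24 (SE 0.29); TG control at 19.2, 7.55 and 16.9 CPM spanned both groups. The chemokine Cxcl14 stood at 174, 165 and 193 CPM in TG intranasal, against 133, 123.2 and 121 CPM in TG drinking water, a difference of 0.50 (SE 0.13). Wnt9b, a secreted Wnt ligand, stood at 0.604, 0.492 and 0.415 CPM in TG intranasal, against 3.62, 1.78 and 2.99 CPM in TG drinking water, a difference of -2.46 (SE 0.62), and Gprc5a, an orphan receptor, at 0.222, 0 and 0 CPM in TG intranasal, against 3.74, 0.802 and 0.609 CPM in TG drinking water, a difference of -4.40 (SE 1.19). The integrin gene Itgae had 0 counts in TG intranasal, against 0.161, 0.357 and 0.609 CPM in TG drinking water, or at least 11.2-fold lower by the floor of 3 counts over the group.

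Genes of vessels, lysosomes and the nucleus, also chosen after their values were seen, gave further values. Adm, a vasodilator peptide induced by hypoxia, stood at 0.890, 2.13 and 1.45 CPM in TG intranasal, against 6.11, 3.39 and 2.66 CPM in TG drinking water, a difference of -1.45 (SE 0.52). Slc2a1, the glucose transporter of brain capillaries, stood at 92.0, 50.2 and 54.5 CPM in TG intranasal, against 122.5, 91.4 and 93.3 CPM in TG drinking water, a difference of -0.64 (SE 0.25), and it overlapped. Npc1, which exports cholesterol from lysosomes, stood at 45.5, 34.5 and 45.9 CPM in TG intranasal, against 71.1, 81.2 and 62.5 CPM in TG drinking water, a difference of -0.77 (SE 0.24) without overlap. The nuclear noncoding RNA Malat1 stood at 208, 217 and 214 CPM in TG intranasal, against 327, 371 and 365 CPM in TG drinking water, a difference of -0.73 (SE 0.36), while TG control stood at 978, 895 and 218 CPM, with TG control 3, the library on the same side of the split by the unnamed row, at the level of TG intranasal. The vesicular acetylcholine transporter gene Slc18a3 stood at 1.72, 9.15 and 3.68 CPM in TG intranasal, against 2.37, 0.312 and 0.665 CPM in TG drinking water, a difference of 2.08 (SE 0.93), and overlapped.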
